A study of Mus musculus with 3 samples.

Results

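The fibroblast growth factors (FGFs), platelet-derived growth factors (PDGFs) and vascular endothelial growth factors (VEGFs) were examined with their receptors in reprogrammed mouse spleen fibroblasts. Members were taken by gene symbol, and 55 probes of 37 genes matched among the 20659 genes that could be named on the array. They comprised 17 secreted FGFs, 4 intracellular FGFs, 4 FGF receptors, 4 PDGFs, 2 PDGF receptors and 5 VEGF-family ligands. The 37th gene, Fgfr1op2, was taken for its name alone: it is named as a fusion partner of the receptor FGFR1 and is no receptor itself. Fgf21 was left out of the set, and the VEGF receptors, which carry other symbols, are described with the related genes.

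RNA was hybridised to 3 one-colour (Cy3) arrays, 1 per group, each from a pool of 5 samples of female origin. The iHep pool held hepatocyte-like cells, which were primary fibroblasts from SiO2-remodelled spleens that had received the lentivirus LV-3TF. The PH pool held primary hepatocytes, freshly isolated as a positive control, with no virus or culture period given in the labels. The MF pool held fibroblasts of the same source that had received the lentivirus LV-NC. The iHep and MF cells were both collected 14 days after transduction, so virus exposure and culture are common to them and not to PH. Strain and age of the mice are not given in the sources used here. No test, p-value or SD over samples can be had from 1 array per group, and "higher" and "lower" describe these arrays.

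Levels are given as log2 of the spot's signal over the array's 75th percentile, so that level 0 is that percentile. The percentile lay at a signal of 3752 on the iHep array, 2081 on PH and 544.3 on MF, and 79.5%, 84.5% and 72.9% of 20577 named genes were well above background on iHep, PH and MF. Judged by repeat spots, a log2 difference had an SD of 0.14 to 0.15. Judged by probes of the same gene it had one of 0.84 to 1.12. MF was scanned apart from the other arrays, so a scan effect cannot be told apart from the group wherever MF is compared. The labels were set against cell type markers. All 10 hepatocyte markers were at least 2-fold higher in PH than in MF, with a median log2 difference of 10.50. In iHep over MF 2 of 9 were higher, with a median of 0.58. The PH array also carried 13 of 13 endothelial, 9 of 9 macrophage and 8 of 8 acinar pancreas markers well above background, at median levels of -0.09, 2.16 and 5.48. In these bulk pools fewer cells of a type and less RNA per cell cannot be told apart.

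Secreted FGFs bind receptor tyrosine kinases of the FGFR family together with heparan sulphate, and the endocrine FGFs need a klotho co-receptor instead. FGFs from mesenchyme take part in liver induction during development, and in the adult liver FGF15 from the gut acts on hepatocytes through FGFR4 and beta-klotho to restrain bile acid synthesis. PDGF ligands act as dimers on PDGFRA and PDGFRB, which mark fibroblasts, stellate cells and pericytes and drive their growth. VEGF ligands act mainly on endothelial receptors to form blood and lymph vessels.

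The 250 bases before the annotated start of 4 members are shown as examples. Fgfr4 is a receptor of hepatocytes, higher in PH than in MF by an amount on which its probes disagreed. Vegfb is a ligand within 2-fold of MF in iHep. Vegfd and Pdgfd are ligands much lower in iHep and PH than in MF. These 4 genes were chosen after their values were seen. The sequences are from RefSeq, build GRCm38.p6, written 5′ to 3′ on the gene's strand, and lie at chr13:55152568-55152817, plus strand, chr19:6987652-6987901, minus strand, chrX:164373272-164373521, plus strand and chr9:6168236-6168485, plus strand. Capitals mark GGGCGG (the GC box bound by Sp1), TATAAA (the TATA box) and ACGTG (the core of the hypoxia response element), searched on both strands, where adjoining matches run together.
Fgfr4: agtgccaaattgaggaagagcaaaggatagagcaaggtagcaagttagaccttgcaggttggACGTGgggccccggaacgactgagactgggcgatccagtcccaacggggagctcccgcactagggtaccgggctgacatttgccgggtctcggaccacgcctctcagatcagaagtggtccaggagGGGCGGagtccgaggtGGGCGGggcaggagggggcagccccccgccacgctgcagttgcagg
Vegfb: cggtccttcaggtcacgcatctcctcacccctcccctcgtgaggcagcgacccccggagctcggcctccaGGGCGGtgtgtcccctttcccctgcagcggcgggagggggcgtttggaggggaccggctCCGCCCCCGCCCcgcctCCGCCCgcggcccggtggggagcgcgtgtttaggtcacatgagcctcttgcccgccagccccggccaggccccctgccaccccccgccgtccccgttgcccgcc
Vegfd: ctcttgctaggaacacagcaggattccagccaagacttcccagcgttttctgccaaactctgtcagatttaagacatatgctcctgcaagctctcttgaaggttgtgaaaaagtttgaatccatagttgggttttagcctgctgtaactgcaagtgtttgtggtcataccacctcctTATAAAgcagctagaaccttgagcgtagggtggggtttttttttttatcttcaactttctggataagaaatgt
Pdgfd: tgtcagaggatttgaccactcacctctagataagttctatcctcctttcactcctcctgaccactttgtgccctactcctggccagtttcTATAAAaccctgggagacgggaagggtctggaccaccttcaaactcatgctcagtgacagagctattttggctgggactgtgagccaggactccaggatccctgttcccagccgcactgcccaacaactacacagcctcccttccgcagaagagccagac
Fgfr4 and Vegfb held 2 and 4 GC boxes, and Fgfr4 also the hypoxia core 188 bases before the start, with 64.0% and 76.4% of bases G or C. Vegfd and Pdgfd held no GC box and 1 TATA box each, 73 and 160 bases before the start, with 42.4% and 53.6% G or C. Among 32851 promoters of this length 32.7% held a GC box, 12.4% a TATA box and 16.6% the hypoxia core, and the median G or C content was 52.4%. Of 28 members with a promoter in the table, 18 held a GC box, 2 a TATA box and 3 the hypoxia core in at least 1 entry. These are counts of genes, whereas the shares above are of promoters, 32851 from 27025 genes. A gene with several promoters could match more easily, so the counts and shares are not directly comparable. A match describes the letters in this window and says nothing of binding.

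Of the 37 members, 25 were well above background in iHep, 27 in PH and 27 in MF. These were 67.6%, 73.0% and 73.0%, beside 79.5%, 84.5% and 72.9% of the 20577 named genes. A total of 30 members were well above background on at least 1 array, and 21 on all of them. Of the 20577 named genes, 18196 and 13993 were so. Fgf3, Fgf4, Fgf6, Fgf12, Fgf16, Fgf20 and Fgf22 were above background on none. Fgf3 and Fgf4 are neighbours in the annotation with Fgf15, and Fgf6 with Fgf23; Fgf15 and Fgf23 were read above background and their neighbours were not. Fgf7 has a single spot, which was marked as non-uniform on the PH array, so it counts here as above background in iHep and MF alone, and it is left out of the counts of differences.

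In iHep over MF, 28 members could be compared. Of these 5 were at least 2-fold higher, against 21.0% of all genes compared, and 14 were at least 2-fold lower, against 24.7% of all genes. The members' median log2 difference was -0.71, where that of all 16196 genes was 0.02. In PH over MF, 8 of 29 members were higher, against 31.4% of all genes, and 14 were lower, against 25.8%, with a median of -0.29 where all 17408 genes had 0.08. In iHep over PH, 10 of 27 members were higher, against 23.4% of all genes, and 12 were lower, against 36.1%, with a median of -0.22 where all 17808 genes had -0.31. A member above background on a single array of a pair enters as a bound, and such a member could only differ one way. There were 7, 5 and 3 bounds in these comparisons. Fgfr1op2, which is no ligand or receptor, is among the members counted. Without it the counts higher and lower were the same, but the medians were lower. They were -1.12 in iHep over MF, -0.70 in PH over MF and -0.35 in iHep over PH. The members' median moved with the setting. In PH over MF it lay at -2.02 with normexp, -1.89 with quantile normalization and -1.92 in the authors' values, and 3 members were higher with normexp. For iHep over PH it turned positive, at 0.53 with quantile normalization (10 higher, 7 lower) and 0.94 in the authors' values (11 higher, 4 lower), where the medians of all genes were 0.24 and 0.26. It was also positive with only probes above background on all arrays (0.48) and with outlier spots kept (0.11). The comparisons share arrays, so their counts are not independent of each other.

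**Figure D1:**
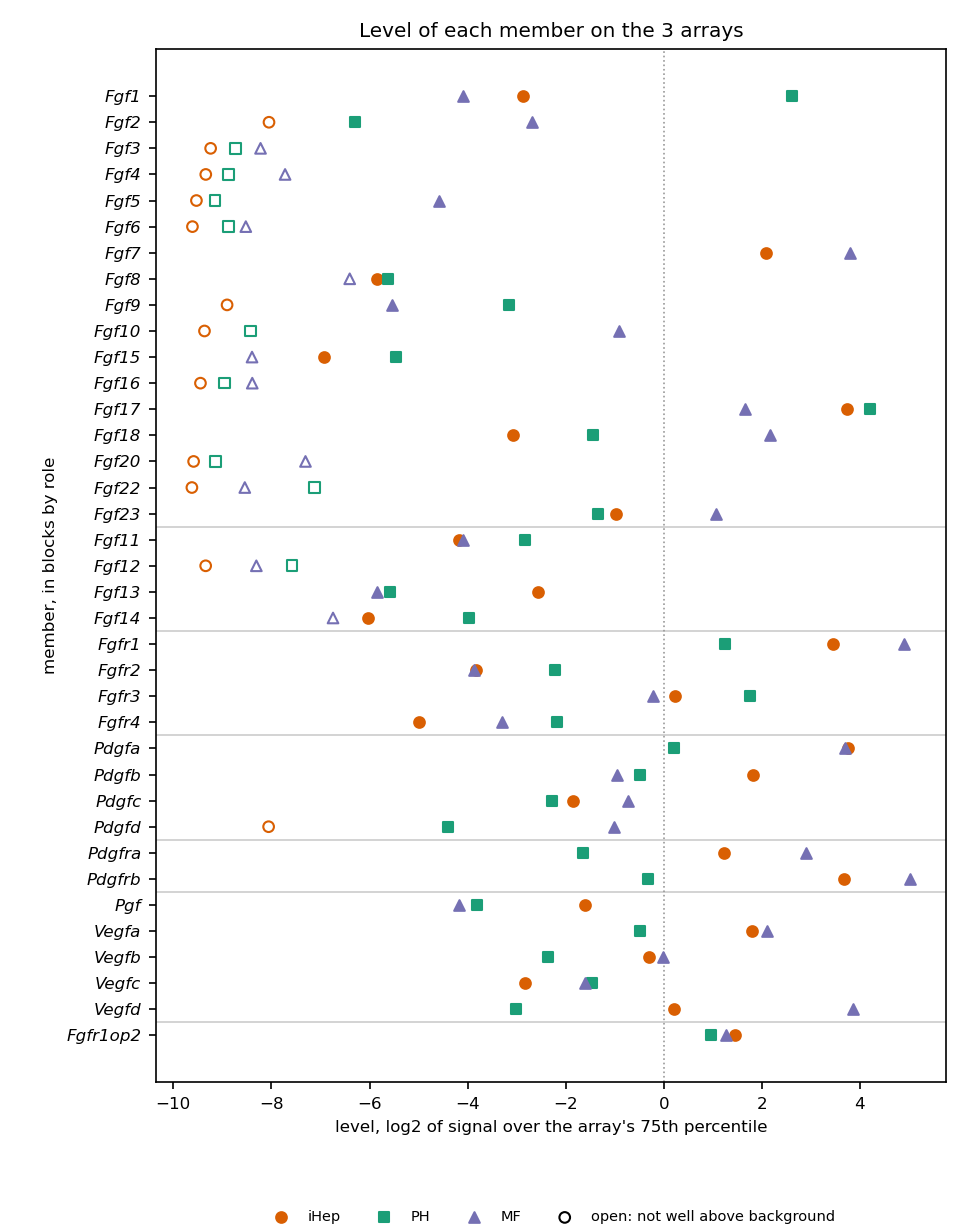
Level of each member (rows, in blocks by role) on the iHep, PH and MF arrays; the x axis is log2 of the signal over the array's 75th percentile, and open symbols were not well above background. Pdgfra, Pdgfrb, Fgfr1 and Vegfd run from PH at the low end through iHep to MF, whereas Fgf1 is far to the right in PH; levels of different genes come from different probes and are not comparable.

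Several paracrine FGF ligands were lower on both other arrays than in MF. Fgf10, a mesenchymal ligand of FGFR2b on epithelia, had a level of -9.37 in iHep and -8.43 in PH, neither above background, against -0.91 in MF. It was at least 85.3-fold lower in iHep and at least 63.3-fold lower in PH than in MF. Its probe was printed 10 times, and the spots in MF had an SD of 0.05. Fgf10 was thus well above background in MF alone, on 10 of 10 spots there and on 0 of 10 in iHep and in PH.

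Fgf18, a ligand of bone and lung mesenchyme, stood at -3.07 in iHep, -1.43 in PH and 2.17 in MF. This was 37.8-fold lower in iHep and 12.2-fold lower in PH than in MF, and 3.10-fold lower in iHep than in PH. Its other probe gave 51.4-fold, 23.1-fold and 2.22-fold lower in the same order, so both probes ran the same way. Fgf2, basic FGF, a mitogen of fibroblasts and endothelial cells, stood at -8.05 in iHep, below background, at -6.30 in PH and at -2.69 in MF. It was at least 24.9-fold lower in iHep and 12.3-fold lower in PH than in MF. In iHep over PH it was at least 2.03-fold lower, but the authors' values gave a log2 difference of -0.08, which ends that call. In PH 7 of its 10 spots were above background, with an SD of 0.69.

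Fgf5, a regulator of the hair cycle, was above background in MF alone, at -4.59, and so at least 6.65-fold lower in iHep and at least 4.93-fold lower in PH. Fgf7, keratinocyte growth factor, which mesenchyme makes for epithelia, was at 2.09 in iHep and 3.79 in MF, 3.25-fold lower in iHep. Its marked PH spot read -0.58, which would be 20.6-fold lower than MF. Unlike Fgf10, Fgf2 and Fgf5, Fgf7 was well above background in iHep. Fgf23, a bone hormone of phosphate balance, stood at -0.97 in iHep, -1.34 in PH and 1.07 in MF, 4.11-fold and 5.32-fold lower than MF, by 1 probe; its other probe was above background on no array.

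Fgf1, acidic FGF, which binds all FGF receptors, stood apart in the other direction. Its level was -2.86 in iHep, 2.62 in PH and -4.09 in MF, which was 104-fold higher in PH than in MF and 44.6-fold lower in iHep than in PH. Its other probe put PH at least 11.1-fold above MF and iHep 19.0-fold below PH. Fgf1 was 2.34-fold higher in iHep than in MF, but this call was lost with normexp background correction and with the mean of its probes (log2 differences of 0.07 and 0.63). The high level of Fgf1 was thus that of the PH array, and iHep lay much nearer to MF. Acinar pancreas markers had a median level of 5.48 on the PH array, beside 5.62 for hepatocyte markers. The part of acinar cells in this and other values of PH was not tested.

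Fgf9, a mesothelial and epithelial ligand of FGFR3 and FGFR2, was at -8.90 in iHep, below background, at -3.16 in PH and at -5.54 in MF. It was at least 17.9-fold lower in iHep than in PH, 5.21-fold higher in PH than in MF, and at least 3.43-fold lower in iHep than in MF. With normexp the PH over MF difference was 0.28 on the log2 scale, which ends that call. Fgf17, of the Fgf8 subfamily of brain and limb patterning, was higher in both iHep and PH than in MF: 3.74 in iHep, 4.21 in PH and 1.67 in MF. It was 4.21-fold higher in iHep and 5.85-fold higher in PH than in MF, and iHep and PH differed by less than 2-fold. Fgf17 rests on a single probe, and its subfamily relative Fgf8 was near background throughout, at -5.84 in iHep, -5.62 in PH and -6.40 in MF. Fgf15, the gut hormone, was at -6.93 in iHep and -5.45 in PH and not above background in MF, 2.79-fold lower in iHep than in PH (-0.34 on the log2 scale with quantile normalization).

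The intracellular FGFs bind sodium channels and do not signal through FGF receptors in the usual way. Fgf13 was at -2.57 in iHep, -5.58 in PH and -5.84 in MF, so that iHep stood apart at 9.69-fold higher than MF and 8.07-fold higher than PH. With normexp the difference from MF was 0.71 on the log2 scale, under 2-fold. Fgf11 was at -4.18 in iHep, -2.84 in PH and -4.09 in MF, 2.38-fold higher in PH than in MF and within 2-fold in iHep over MF. Fgf14 was at -6.02 in iHep and -3.98 in PH, 4.13-fold lower in iHep. It was not above background in MF, against which PH was at least 5.02-fold higher. The other Fgf14 probes were above background on no array. In iHep over PH its log2 difference was -1.01 with quantile normalization and in the authors' values. The PH over MF call of Fgf11 was lost with normexp, quantile normalization and the authors' values, at 0.24, 0.62 and 0.60.

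The FGF receptors split. Fgfr1, the main receptor of mesenchymal cells, was at 3.45 in iHep, 1.24 in PH and 4.91 in MF. It was 2.75-fold lower in iHep and 12.7-fold lower in PH than in MF, and 4.62-fold higher in iHep than in PH. A further probe gave 5.05-fold lower, 12.4-fold lower and 2.46-fold higher, the same directions. Fgfr1 in iHep thus lay between the other arrays, nearer to MF by the probe used and nearer to PH by the further one.

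Fgfr2 and Fgfr3, receptors of epithelia and cartilage, were higher in PH. Fgfr3 stood at 0.23 in iHep, 1.77 in PH and -0.21 in MF, 3.95-fold higher in PH than in MF and 2.91-fold lower in iHep than in PH. Fgfr2 stood at -3.82 in iHep, -2.21 in PH and -3.87 in MF, 3.16-fold higher in PH than in MF and 3.05-fold lower in iHep than in PH. Both were within 2-fold of MF in iHep by the probe used. Their other probes read otherwise in iHep over MF, where Fgfr3 was 3.14-fold higher and Fgfr2 2.89-fold lower. In iHep over PH the other Fgfr3 probe gave a log2 difference of -0.66, under 2-fold. For Fgfr2 the PH over MF difference was 0.67 with normexp, and iHep over PH was -0.94 with quantile normalization, both under 2-fold.

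Fgfr4, the receptor through which hepatocytes read FGF15, was measured by probes that disagreed. The brighter one on average read -4.99 in iHep, -2.18 in PH and -3.30 in MF. It gave 2.16-fold higher in PH than in MF (0.67 on the log2 scale with quantile normalization, under 2-fold), a log2 difference of -2.81 in iHep over PH and 3.24-fold lower in iHep than in MF. The other read -4.62 in iHep and 0.73 in PH and was not above background in MF. It gave at least 131-fold higher in PH than in MF, 40.6-fold lower in iHep than in PH and at least 3.22-fold higher in iHep than in MF. Higher in PH than on the other arrays is common to both probes, and the direction of iHep over MF is not. Klb, beta-klotho, the co-receptor of FGFR4, was at -6.67 in iHep and -1.10 in PH and not above background in MF, 47.5-fold lower in iHep than in PH.

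**Figure D2:**
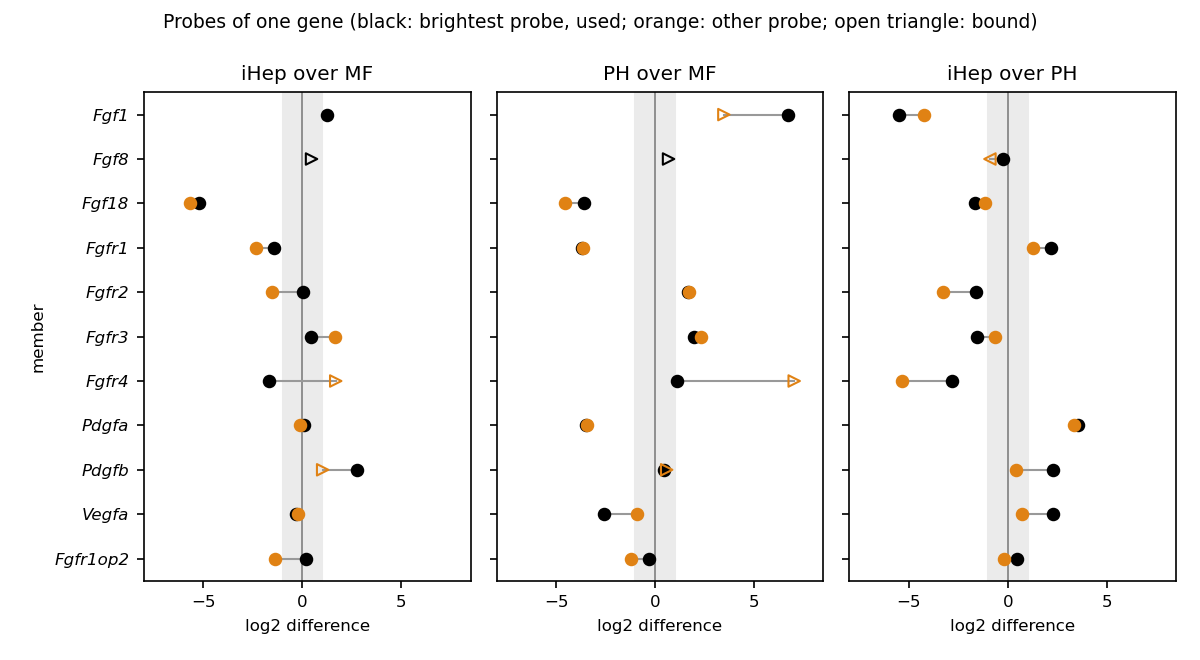
Log2 differences (x axis) given by each probe of the members with more than 1 usable probe, in panels for iHep against MF, PH against MF and iHep against PH; black is the probe used, orange another probe, open triangles are bounds, and grey marks differences within 2-fold. Probes of Pdgfa lie close together, with spreads of 0.03 to 0.20 on the log2 scale, and those of Fgfr4 lie on either side of 0 in iHep over MF.

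PDGF ligands and receptors did not move as one. Pdgfa, the ligand of PDGFRA, was at 3.76 in iHep, 0.21 in PH and 3.69 in MF. It was 11.7-fold higher in iHep and thus, like MF, far above PH, which was 11.2-fold lower than MF. The second Pdgfa probe gave log2 differences of 3.35 for iHep over PH and -3.46 for PH over MF, and iHep and MF differed by 0.06 on the log2 scale by the probe used and by -0.11 by the second. Pdgfa in iHep was thus within 2-fold of MF by both probes.

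Pdgfb, which binds both receptors and recruits pericytes, stood at 1.83 in iHep, -0.48 in PH and -0.95 in MF. It was 6.83-fold higher in iHep than in MF and 4.95-fold higher than in PH, and its dimmer probe gave at least 2.04-fold and 1.36-fold higher. Pdgfd, a ligand of PDGFRB that is cut to become active, ran the other way. It was not above background in iHep at -8.06, at -4.41 in PH and at -1.02 in MF. It was at least 79.1-fold lower in iHep than in MF, 10.5-fold lower in PH than in MF, and at least 7.56-fold lower in iHep than in PH. Pdgfc, a PDGFRA ligand that also needs cutting, was at -1.85 in iHep, -2.28 in PH and -0.73 in MF. It was 2.17-fold lower in iHep, where quantile normalization and the authors' values gave log2 differences of -0.96 and -0.98, and 2.91-fold lower in PH than in MF. In iHep, Pdgfb was thus above MF and Pdgfd below it, while Pdgfc was below it by an amount that crossed 2-fold with the setting.

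Both PDGF receptors kept a level in iHep that was far above PH and somewhat below MF. Pdgfra stood at 1.22 in iHep, -1.64 in PH and 2.89 in MF, with SDs over 10 spots of 0.05 in iHep, 0.06 in PH and 0.10 in MF, which measure error within an array only. It was 3.18-fold lower in iHep and 23.1-fold lower in PH than in MF, and 7.28-fold higher in iHep than in PH. Pdgfrb stood at 3.68 in iHep, -0.32 in PH and 5.02 in MF, 40.5-fold lower in PH than in MF and higher in iHep than in PH by 4.0 on the log2 scale. Its difference in iHep over MF, -1.34, was -0.83 with quantile normalization and in the authors' values, under 2-fold. These receptors stood beside other fibroblast genes that were much lower in iHep. All 10 fibroblast markers were at least 2-fold lower in iHep than in MF, with a median log2 difference of -3.75, and Thy1 reached -12.99. Of 8 pericyte and smooth muscle markers 6 were lower (median -4.97) and 1 was higher. That one was Cspg4, the NG2 proteoglycan, at 5.05.

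**Figure D3:**
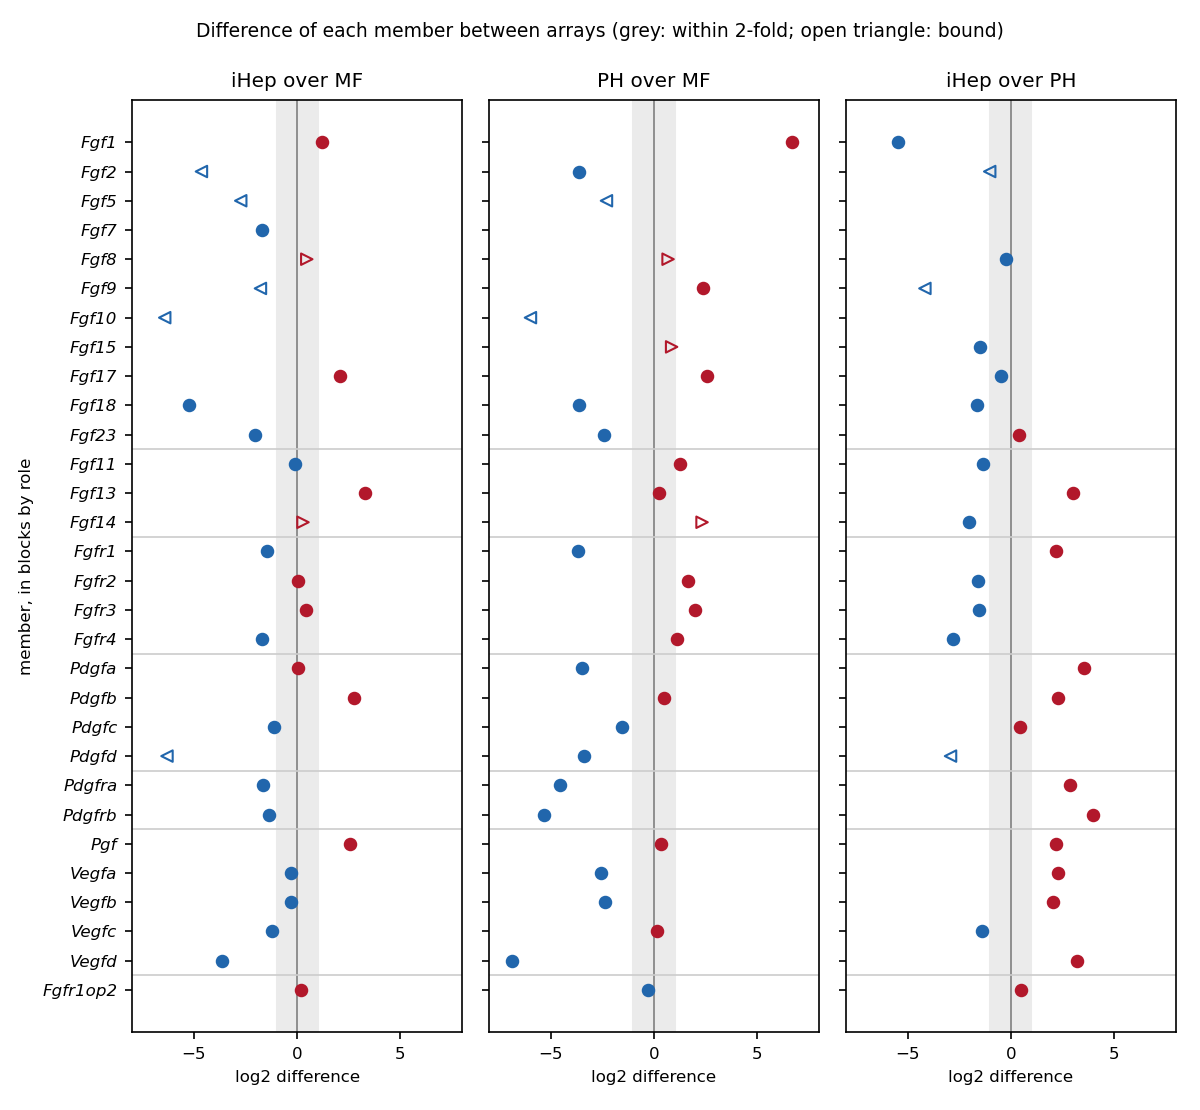
Log2 differences (x axis) of the members with a value, in panels for iHep against MF, PH against MF and iHep against PH; filled points were measured on both arrays, open triangles are bounds, and grey marks differences within 2-fold. In iHep over PH both PDGF receptors, Fgfr1 and the VEGF ligands other than Vegfc lie to the right, and the secreted FGFs other than Fgf23 to the left.

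Vegfa, the main growth factor of blood vessels, was at 1.80 in iHep, -0.48 in PH and 2.10 in MF. It was within 2-fold of MF in iHep, at a log2 difference of -0.30, and 4.84-fold higher in iHep than in PH by the probe used, against 1.64-fold by the other. PH was 5.97-fold lower than MF by this probe and 1.91-fold lower by the other, which targets another transcript accession. Vegfb, linked to fatty acid handling and vessel survival, was at -0.31 in iHep, -2.36 in PH and -0.01 in MF, 4.15-fold higher in iHep than in PH and 5.11-fold lower in PH than in MF. Vegfa and Vegfb in iHep were thus within 2-fold of MF. Vegfb was lower in PH, and Vegfa was so past 2-fold by 1 of its 2 probes.

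Pgf, placental growth factor, a ligand of FLT1, was at -1.61 in iHep, -3.82 in PH and -4.17 in MF. In iHep it was 5.93-fold above MF and 4.63-fold above PH, by a single probe. With normexp the difference from MF was 1.19 on the log2 scale. The lymphatic growth factors Vegfc and Vegfd were lower in iHep than in MF. Vegfd, also known as Figf, was at 0.22 in iHep, -3.01 in PH and 3.85 in MF, with SDs over 10 spots of 0.07, 0.12 and 0.05. It was 12.4-fold lower in iHep and 116-fold lower in PH than in MF, and 9.33-fold higher in iHep than in PH. Vegfc was at -2.83 in iHep, -1.46 in PH and -1.61 in MF, 2.34-fold lower than MF and 2.59-fold lower than PH in iHep, and quantile normalization gave log2 differences of -0.99 and -0.94. Fgfr1op2 was at 1.45 in iHep, 0.97 in PH and 1.27 in MF and within 2-fold in every comparison by the probe used, while its other probe was 2.65-fold lower in iHep and 2.31-fold lower in PH than in MF.

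The receptors and co-receptors of the VEGF family were mostly highest in PH. In iHep over MF 3 of 5 were lower and none was higher. In PH over MF 4 of 5 were higher and none was lower, and in iHep over PH 4 of 5 were lower and 1 was higher. Of all genes 21.0% were higher and 24.7% lower in iHep over MF. For PH over MF these shares were 31.4% and 25.8%, and for iHep over PH 23.4% and 36.1%. Flt1, VEGF receptor 1, was at -6.18 in iHep, 2.20 in PH and -2.85 in MF, 334-fold lower in iHep than in PH. Kdr, the main signalling receptor of VEGFA, was at -1.38 in iHep, 0.65 in PH and -1.17 in MF. Flt4, the receptor of VEGFC and VEGFD, was not above background in iHep, at -0.80 in PH and at -5.99 in MF. The co-receptor Nrp1 was at -4.20 in iHep, 1.09 in PH and -0.38 in MF, whereas Nrp2 was at 2.64, 1.31 and 2.18 and was the exception. The endothelial markers, which include Flt1, Kdr and Flt4 themselves, ran the same way. For PH over MF 11 of 13 were higher with a median of 4.31, and in iHep over PH 12 of 13 were lower. On a linear scale the summed levels of the endothelial list were 1.51 in iHep, 42.8 in PH and 3.01 in MF. Of its 13 genes, 7 were well above background in iHep, 13 in PH and 8 in MF. Cdh5, Tie1, Emcn and Erg were not above background in iHep or MF, whereas Pecam1, Kdr, Flt1, Eng, Vwf and Egfl7 were in both. The part of endothelial cells in the receptor values was not tested.

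Other genes of the FGF pathway were taken from lists, whose counts stand against the shares of all genes given above for the same comparisons. Of 15 co-receptors and carriers compared in iHep over MF, 2 were higher and 9 lower (median -1.01). Gpc6 and Gpc3, membrane heparan sulphate proteoglycans, were 20.7-fold and 13.2-fold lower, Flrt2, which binds FGF receptors, 8.63-fold lower, and Sdc2, a syndecan, 6.21-fold lower. Gpc4, another such proteoglycan, was not above background in iHep and at least 719-fold lower than in MF and at least 366-fold lower than in PH. For PH over MF 3 of 16 were higher and 7 lower, among them Gpc6 at 137-fold lower and Sdc4, another syndecan, higher by 3.17 on the log2 scale. Against PH, 5 of 16 were higher and 6 lower in iHep, with Gpc3 at 115-fold lower, shares of 31.2% and 37.5% beside 23.4% and 36.1% of all genes. Among 7 proteases and binders of PDGF and VEGF, 5 were lower in iHep than in MF and 1 was higher. Plau and Plat, plasminogen activators of which the second cuts PDGF-C, were 51.3-fold and 6.71-fold lower, Adamts1 22.3-fold lower, and Ccbe1, which helps to activate VEGFC, 7.37-fold higher. Against MF, PH had 5 of 7 lower and none higher. Against PH, iHep had 2 higher and 4 lower.

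Lists of genes downstream of the receptors were also counted. Among 9 transcription targets of the ERK pathway 4 were higher in iHep than in MF and none lower (median 0.83). The shares of all genes were 21.0% and 24.7%. Fosl1, an AP-1 subunit, was 8.81-fold higher, Myc 5.11-fold, and Etv1 and Etv4, ETS factors that respond to FGF, 4.32-fold and 3.97-fold. Against PH, 6 of 9 were higher in iHep and 3 lower, beside 23.4% and 36.1% of all genes. Fosl1 was 83.9-fold, Etv4 44.4-fold, Myc 15.7-fold and Etv1 11.6-fold higher. Fos, Egr1 and Phlda1 were 5.64-fold, 2.78-fold and 2.01-fold lower. PH had 3 higher and 5 lower than MF. Feedback inhibitors had 2 of 9 higher and 2 lower in iHep than in MF, near the shares of all genes (21.0% and 24.7%). Il17rd, which binds FGF receptors, was at least 93.8-fold lower, Spry1 13.4-fold lower, Spred2 3.35-fold higher, Spry4 2.42-fold higher and Dusp4 1.95-fold higher. PH had 1 higher and 5 lower than MF, and in iHep over PH 3 were higher and 2 lower, with Dusp4, a phosphatase of ERK, 9.63-fold higher and Il17rd at least 38.1-fold lower. Of 13 adaptors 2 were higher and 4 lower in iHep than in MF, or 15.4% and 30.8% beside 21.0% and 24.7% of all genes. Then 1 was higher and 5 were lower in PH than in MF, and 3 were higher and 2 lower in iHep than in PH. Gab1, a docking protein, was 7.61-fold lower in iHep than in MF, Pik3r1, a regulatory subunit of PI3-kinase, 2.71-fold lower and Grb2, an adaptor to the Ras pathway, 2.58-fold lower. Frs3, a docking protein of FGF receptors, was 4.71-fold higher.

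Hypoxia genes, which act upstream of Vegfa or respond with it, had 3 of 14 higher and 3 lower in iHep than in MF (21.4% each, beside 21.0% and 24.7% of all genes), with a median of -0.10. Egln3 and Ankrd37 were 19.6-fold and 6.18-fold higher, Ndrg1 4.42-fold higher and Adm, a vasodilator peptide, 8.07-fold lower. PH had 3 higher and 6 lower than MF, with Hif1a, the oxygen-sensitive factor, 11.6-fold lower. In iHep over PH 7 were higher and 2 lower. A list of bile acid genes, set up as targets of gut FGF15 in hepatocytes, had 4 of 5 genes higher in PH than in MF. In iHep over PH 4 of 5 were lower. Whether these genes answered to FGF15 was not tested. Cyp7a1, the rate-limiting enzyme of bile acid synthesis, was at -6.29 in iHep, -0.40 in PH and below background in MF, 59.3-fold lower in iHep than in PH. Abcb11, the bile salt export pump, was at -5.11 in iHep, 5.96 in PH and -5.60 in MF, the largest difference of the list among genes read on both arrays. Slc10a1, the bile acid importer, was the exception, at 4.79 in iHep, 5.62 in PH and 5.99 in MF, 2.30-fold lower in iHep than in MF. The hepatocyte markers, by contrast, had a median level of -5.35 in MF. Whether the Slc10a1 probe reads this gene alone was not tested, so its level in MF may not be that of the importer.

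**Figure D4:**
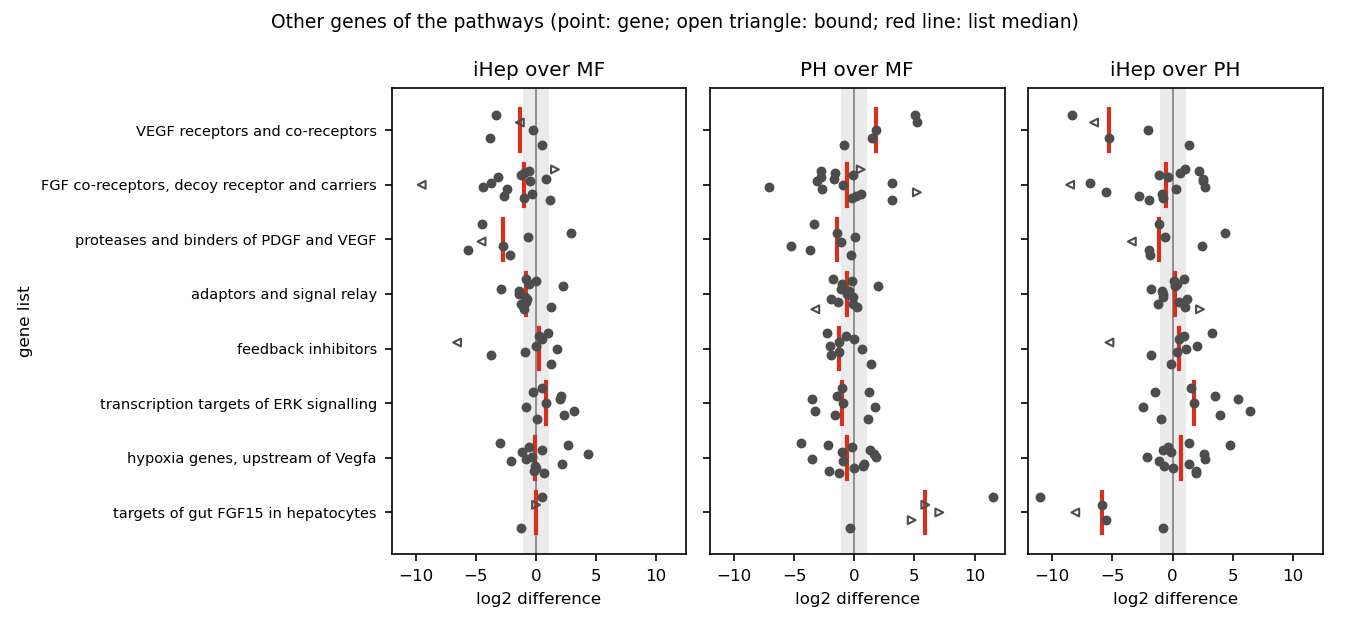
Log2 differences (x axis) of other genes of the FGF, PDGF and VEGF pathways by list (rows), in panels for iHep against MF, PH against MF and iHep against PH; points are genes, open triangles bounds, red lines list medians, and grey marks differences within 2-fold. The VEGF receptors and co-receptors other than Nrp2 lie to the right in PH over MF, and the targets of ERK signalling have their median to the right in both comparisons of iHep.

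The order of the 3 arrays could be read for the 21 members above background on all of them. The highest level was in iHep for 5, in PH for 7 and in MF for 9, or 23.8%, 33.3% and 42.9%. Over 13928 genes read the same way these shares were 31.5%, 35.1% and 33.4%. Markers of other cells were read beside these values. Macrophage genes were well above background for 6 of 9 in iHep and for 9 of 9 in PH and in MF. Their summed linear levels were 0.95, 93.4 and 81.6 in iHep, PH and MF. Platelet markers, a source of PDGF, had summed levels of 0.07, 2.01 and 1.85 in iHep, PH and MF, with 4, 5 and 3 of 5 well above background. The sum in MF was nearly all Pf4, at a log2 level of 0.83, and Ppbp and Gp9 were not above background there. Hepatic stellate markers, for cells that carry PDGF receptors in liver, had 0.07, 3.42 and 3.15, with 4, 6 and 3 of 6 well above background. The sum in MF was nearly all Ngfr, at a log2 level of 1.59, and 5 of 6 were higher in PH than in MF (median log2 difference 2.63). The part of such cells in the values of PH and MF was not tested.

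**Figure D5:**
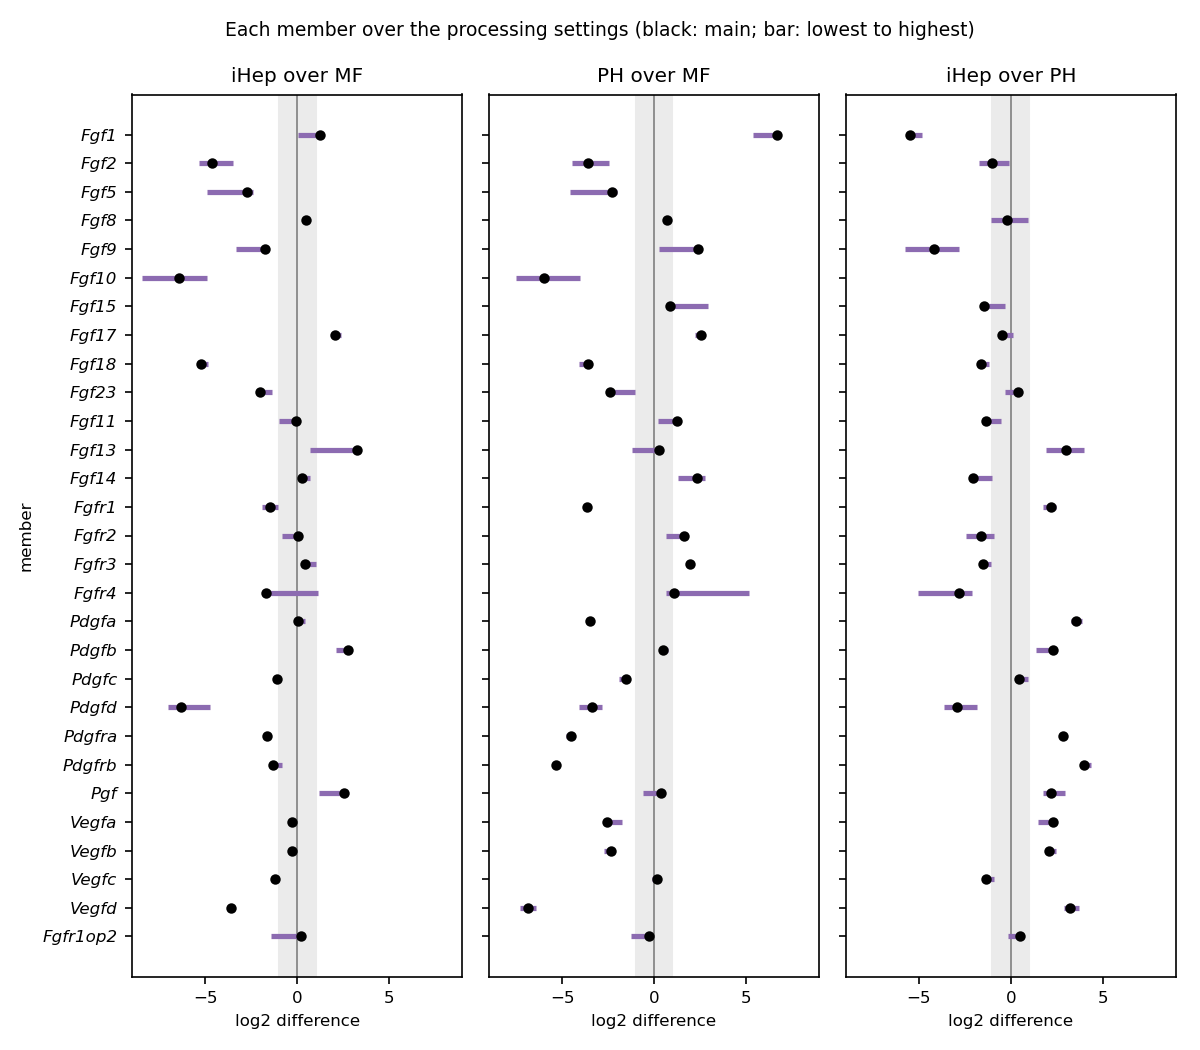
Log2 differences (x axis) of each member over the processing settings, in panels for iHep against MF, PH against MF and iHep against PH; black points are the values given in the text and bars run from the lowest to the highest setting, with grey marking differences within 2-fold. In iHep over MF the bars of Pdgfra, Vegfd and Vegfb are short, and that of Fgfr4 crosses 0. In PH over MF the bar of Vegfd is longer, from -7.31 to -6.43.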

How the data were processed

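Total RNA of 3 pools was labelled with Cy3 and hybridised to 1 array per pool; titles give the groups. Spot intensity values were deposited as scanner output, per the file headers made with Agilent Feature Extraction 11.0.1.1 (the submitters' processing notes name 9.1), background-subtracted and detrended within the array but not normalized between arrays. The authors' deposited value table holds log2 values of 26049 probes, 41 of the 55 member probes among them. Against the scanner values its columns correlated at 0.998, 0.994 and 0.997 for iHep, PH and MF, with medians of 7.01, 7.07 and 7.02. Differences ran the same way with slopes between 0.95 and 0.99. All columns had the same maximum, 17.37, and most member differences lay close to those with quantile normalization. For Pdgfrb in iHep over MF both gave -0.83. The authors' values and quantile normalization are thus not independent settings. How the authors normalized their values was not tested.

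The values used are log2 of the processed intensity minus the array's 75th percentile. Control and outlier spots were left out (230, 383 and 190 outliers on iHep, PH and MF of 43020 spots each), no spot was saturated, and repeat spots were averaged. Probes were named by transcript accession through a RefSeq table (GRCm38.p6); 27234 of 39429 had a name. Of several probes, the brightest on average over the arrays stands for the gene. A probe is above background where at least 50% of its spots are in the software's call. Where 1 side of a comparison is not, the difference is a bound against its own reading or, if higher, the dimmest probe above background on that array (-7.32, -6.89 and -6.30 on iHep, PH and MF). No fold is given where neither side is, or where only another probe of the gene is. Differences of at least 2-fold were counted over all genes. Every member above background on at least 1 array is named with its levels, and from each related list, for iHep over MF, up to 4 genes with the largest differences measured on both arrays; related genes named for other comparisons or with bounds were chosen after their values were seen. Members and lists were chosen with earlier results of these data known.

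The calculation was run on simulated data with shifts larger than 2-fold, the noise of repeat spots alone and every shifted gene above background. This checks the arithmetic only and leaves out the larger spread between probes of a gene. Alternatives were normexp background correction (limma 3.58.1, R 4.3.3, offset 50, on median signals since the files hold no mean signals), quantile normalization, scaling to the median of the probes detected throughout, the values of the authors, a stricter and no filter on dim probes, and the mean of a gene's probes. Keeping outlier spots was added after seeing the data. Other work used Python 3.11.15. The slide as a block could not be fitted with 1 array per group.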

Additional observations from a re-analysis of the deposited data

How the results depend on the processing

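No paired analysis was possible because each group has 1 array and no test was made. The members' counts were within 1.5 times of those reported under most settings. With normexp, 3 members passed 2-fold upward in iHep over MF and 3 in PH over MF. With quantile normalization 7 members were lower in iHep than in PH. In the authors' values 5 were higher in PH than in MF and 4 were lower in iHep than in PH. With only probes above background on all arrays, 9 were lower in iHep than in MF and 7 in iHep than in PH; 21 members remain there by construction. Fgfr4 in iHep over MF was 1.11 on the log2 scale by the mean of its probes, since these disagree. For the other changes the cause was not tested.

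Scaling to the median of the detected probes and keeping outlier spots moved no count of members by that much. Without a filter on dim probes 21 members were lower in iHep than in MF, against 14 with it. Higher genes made up 45.9% of all genes called in iHep over MF, 54.8% in PH over MF and 39.3% in iHep over PH. These were 27.7% and 38.9% for the first 2 with normexp, 43.2% and 55.0% for the last 2 with quantile normalization, and 42.0% and 55.9% for the last 2 in the authors' values. The shifts of the median of all genes were -0.45 in both comparisons with MF with normexp. For PH over MF and iHep over PH they were -0.35 and 0.55 with quantile normalization, -0.39 and 0.57 in the authors' values, and -0.25 and 0.33 over probes above background on every array. Without a filter they were -0.13 for iHep over MF and -0.11 for PH over MF.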
